A study of Mus musculus with 16 samples.

Results

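The gut bacteria of Mertk knockout mice were set against those of wild-type mice after both had been given dextran sulfate sodium (DSS). The comparison used 8 of the 16 libraries in the series, 4 from MERTK-KO mice on DSS and 4 from WT mice on DSS, chosen by their labels. All mice were of C57BL/6J background, 8 to 10 weeks old and kept under specific pathogen-free conditions. The KO+DSS and the WT+DSS mice drank 2.5% DSS for 7 days, and distal colon was collected on day 8. The remaining 8 libraries, 4 MERTK-KO and 4 WT mice on water, served only to show whether a genotype difference seen on DSS was also present without it. The labels give the knockout as MERTK−/− in the whole animal, with no further detail of the allele. They give no cage or litter, so genotype and cage cannot be told apart, and bacterial counts hold no host transcript by which the deletion could be checked.

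Mertk is a receptor tyrosine kinase of the TAM family. It lets macrophages recognise and engulf dying cells and it restrains inflammatory signalling. DSS is a detergent-like polymer that damages the colonic epithelium and gives a colitis that is widely used as a model. During colitis, obligate anaerobes of the Clostridia and Bacteroidia often lose ground to bacteria that tolerate oxygen or feed on mucus. The bacteria were counted by sequencing part of the 16S ribosomal RNA gene. Each amplicon sequence variant (ASV) is a distinct 16S sequence, finer than a genus, and its share of the counts is a relative abundance. A share says nothing about the total number of bacteria, since all shares in a mouse add up to 100%.

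The deposited table held 1901 ASVs, and every library had been brought to an equal total of 96469 counts, so a share of 1 count was the same in all mice. Of these ASVs, 1056 were tested, of which 879 had a count in a mouse on DSS. ASVs were also summed into 146 genus-level groups, of which 122 were tested, and into 72 families, of which 57 were tested. A group called "unclassified" holds the ASVs that the table names no further than that rank. Each level was fitted with edgeR's quasi-likelihood test over all 16 libraries, and a taxon was called where its Benjamini-Hochberg adjusted p was under 0.05. In the KO mice on DSS, 84 ASVs had a mean above 0 but under 5% of that in WT mice on DSS, and they held 1.77 to 1.98% of the counts of each mouse. In the WT mice on DSS, 86 ASVs were traces by the same rule and held 1.08 to 1.33%. Of the 84, 20 had a count in every KO mouse on DSS and a mean of at least 20 counts there. Their median coefficient of variation between mice was 21.4% in KO mice, against 43.8% for the same ASVs in WT mice. For 18 of the 86 traces in WT mice, chosen in the same way, it was 22.8% in WT mice and 58.8% in KO mice. That choice asked for counts in every mouse of the trace group only, which favours a low value there. With the counts of all traces set to 0 in the mice on DSS, edgeR called 228 ASVs higher and 222 lower, against 201 and 197 as deposited. It called 9 genus-level groups higher and 16 lower, against 10 and 15 as deposited, and 5 families higher and 9 lower both ways. This setting empties the lower genotype, so it widens the difference of those ASVs by construction. For taxa whose lower counts were traces, a call kept under it is therefore no further support.

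In the shares of their ASVs, KO and WT mice on DSS differed more than mice of the same genotype did. The Bray-Curtis distance, which is 0 for identical and 1 for wholly different communities, averaged 0.815 between KO and WT mice at the ASV level, with a range of 0.765 to 0.841. Within the KO mice it averaged 0.391, with a range of 0.371 to 0.410, and within the WT mice 0.466, with a range of 0.310 to 0.596. All KO-to-WT pairs therefore lay further apart than any pair of the same genotype. Genotype took up 0.648 of the summed squared distance (exact permutation over 35 splits, p = 0.0286, the smallest p this design allows). Summed into genera, the same mean distances were 0.378 between genotypes, 0.232 within KO mice and 0.293 within WT mice. Summed into families, they were 0.264, 0.174 and 0.201 in the same order. Summing ASVs can only lower this distance or leave it unchanged, so its fall from ASVs to families is no result by itself. The share of the summed squared distance was 0.457 for genera and 0.447 for families, each with an exact permutation p of 0.0286.

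**Figure D1:**
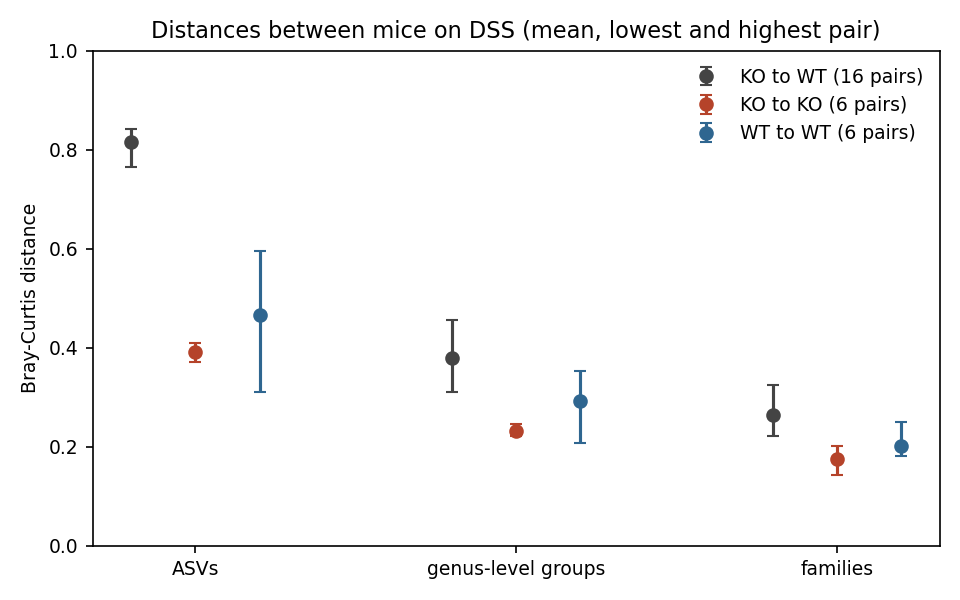
Bray-Curtis distance (y axis, no unit, 0 to 1) between mice on DSS for ASVs, genus-level groups and families. Points are means over pairs (16 pairs of a KO with a WT mouse, 6 pairs within each genotype) and lines run from the lowest to the highest pair; at the ASV level the KO-to-WT pairs, at 0.765 to 0.841, lie above all pairs within a genotype.

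The number of ASVs and their evenness did not separate the genotypes. The 4 KO mice on DSS had 514, 525, 540 and 534 ASVs, and the 4 WT mice on DSS had 508, 537, 412 and 664. The means were 528.2 ± 11.3 in KO mice and 530.2 ± 104 in WT mice (SD, n = 4 each), a difference of -2 (two-sided exact permutation test, p = 0.943). The WT mice spread widely around the narrow range of the KO mice. The Shannon index, which rises with both the number and the evenness of ASVs, was 4.60, 4.62, 4.68 and 4.70 in KO mice, against 4.41, 4.27, 4.25 and 4.81 in WT mice. The difference in means was 0.214 (two-sided exact permutation test, p = 0.143). Without WT mouse 4, whose index was above those of the KO mice, the difference was 0.337 with an exact permutation p of 0.0286.

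In the largest phyla, Firmicutes and Bacteroidota, the genotypes were close. Firmicutes, the phylum of the Clostridia and lactobacilli, averaged 51.7 ± 5.25% in KO mice on DSS and 49.2 ± 1.91% in WT mice on DSS. Bacteroidota, which include Muribaculaceae and Alistipes, averaged 41.2 ± 6.00% in KO mice and 40.7 ± 1.83% in WT mice (SD, n = 4 each for all 4 values). The ratio of Firmicutes to Bacteroidota was 1.55, 1.29, 1.42 and 0.886 in KO mice, against 1.23, 1.19, 1.28 and 1.14 in WT mice, and the groups overlapped. Some smaller phyla did not overlap. Campilobacterota ranged over 0.155 to 0.232% in KO mice on DSS and 1.61 to 6.90% in WT mice on DSS. Verrucomicrobiota ranged over 0.431 to 1.39% in KO mice and 0.0124 to 0.0612% in WT mice. Deferribacterota ranged over 2.01 to 4.21% in KO mice and 0.282 to 1.33% in WT mice. The remaining phyla overlapped.

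Below the phylum, 25 of the 122 genus-level groups tested (20.5%) differed by edgeR, 10 higher (8.2%) and 15 lower (12.3%) in KO mice on DSS. The median log2 fold change over all groups tested was 0. DESeq2 called 19 higher and 17 lower, a different split between the directions. TMM moved the median group by -0.17, and centred log-ratios moved it by 0.20 or 0.14, on the log2 scale. Of the called groups, 13 reached 0.1% of counts in a group mean, and 7 of these were higher and 6 lower in KO mice. The remaining 12 were minor, with no group mean above 0.0923%.

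Akkermansia and Escherichia-Shigella were among the groups that were higher in KO mice. Akkermansia, which degrades mucin, made up 0.431, 0.650, 0.594 and 1.39% of counts in the 4 KO mice on DSS, against 0.0124, 0.0301, 0.0342 and 0.0612% in the 4 WT mice on DSS. Every KO mouse was above every WT mouse, and a single ASV supplied all the counts in both genotypes. The mean was 22.2-fold higher in KO mice, a log2 fold change of 4.47 with an SE of 0.96 (edgeR, adjusted p = 0.00475). Escherichia-Shigella, a name that joins a pair of genera of facultative anaerobes, made up 0.622, 0.427, 0.570 and 0.509% in KO mice, against 0.0207, 0.0332, 0.0155 and 0.0228% in WT mice. The groups did not overlap and the KO mean was 23.1-fold higher (log2 fold change 4.52, SE 1.04, edgeR adjusted p = 0.00475). The WT counts of both genera were traces, so the sizes of these folds rest on them. With the traces set to 0 no WT mouse had a count left, and the KO mean was at least 247-fold higher for Akkermansia and at least 171-fold higher for Escherichia-Shigella (edgeR adjusted p = 0.000216 for both). Such lower bounds are computed against 3 counts in each library.

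Among the Rikenellaceae, anaerobic Bacteroidota that tolerate bile, Alistipes took 7.03, 6.78, 5.96 and 6.83% of counts in KO mice on DSS, against 2.05, 2.25, 2.22 and 1.97% in WT mice on DSS. Within each genotype the mice differed little, and the KO mean of 6.65% was 3.13-fold above the WT mean of 2.12% (log2 fold change 1.65, SE 0.30, edgeR adjusted p = 0.00123). Rikenella, of the same family, made up 0.993, 0.485, 0.480 and 0.315% in KO mice and 0.0301, 0.138, 0.218 and 0.174% in WT mice. It was 4.06-fold higher with no overlap, but its edgeR adjusted p of 0.0496 passed narrowly. That call was lost in 12 of 20 alternatives, among them TMM scaling (adjusted p = 0.112) and leaving out any of KO mice 1, 2 and 3 or WT mice 1, 2 and 4.

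Prevotellaceae_UCG-001, an uncultured group of carbohydrate-fermenting Bacteroidota, was the most abundant taxon to rise at this level. It took 8.10, 10.6, 11.1 and 14% of counts in KO mice on DSS, against 3.60, 2.17, 2.37 and 3.89% in WT mice on DSS. The lowest KO mouse was above the highest WT mouse, and the KO mean of 10.9% was 3.64-fold the WT mean of 3.01% (log2 fold change 1.86, SE 0.52, edgeR adjusted p = 0.0167). Unclassified Tannerellaceae, relatives of Parabacteroides, averaged 0.492 ± 0.227% in KO mice and 0.0137 ± 0.00710% in WT mice (SD, n = 4 each), a 35.8-fold difference (edgeR adjusted p = 0.000616). UCG-005, an uncultured group of Oscillospiraceae, averaged 0.189 ± 0.0317% in KO mice and 0.00829 ± 0.000846% in WT mice (SD, n = 4 each), which is 22.8-fold higher (edgeR adjusted p = 0.0167). In neither did the mice of the 2 genotypes overlap. With traces set to 0, which takes counts from the WT mice and so widens both differences, both were called higher (edgeR adjusted p = 0.000243 for unclassified Tannerellaceae and 0.0157 for UCG-005).

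Several bacteria that were plentiful in WT mice on DSS were scarce in KO mice on DSS. Helicobacter, spiral bacteria whose mouse species live in the mucus of the large bowel, made up 0.155, 0.175, 0.232 and 0.164% of counts in KO mice, against 1.61, 6.90, 5.75 and 4.08% in WT mice. The groups did not overlap, and Helicobacter was 25.2-fold lower in KO mice (log2 fold change -4.66, SE 0.76, edgeR adjusted p = 0.000616). Alloprevotella, a saccharolytic genus of Prevotellaceae, made up 0.0881, 0.0850, 0.0871 and 0.0912% in KO mice, against 0.0612, 3.09, 1.78 and 5.39% in WT mice. The KO mice were almost equal, while WT mouse 1 fell just below them, so the groups overlapped. The KO mean was 29.4-fold lower (log2 fold change -4.87, SE 0.93, edgeR adjusted p = 0.00237), and 18.7-fold lower without WT mouse 4. All the counts of both genera in KO mice were traces, so these folds rest on them. With the traces set to 0, Helicobacter was at least 1474-fold and Alloprevotella at least 830-fold lower in KO mice (edgeR adjusted p = 3.86e-06 and 0.000155).

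Faecalibaculum, a genus of Erysipelotrichaceae first isolated from mouse, made up 0.105, 0.111, 0 and 0.0891% in KO mice on DSS, against 3.13, 1.66, 1.61 and 7.95% in WT mice on DSS. Every WT mouse was above every KO mouse, and the mean was 47.1-fold lower in KO mice (log2 fold change -5.55, SE 1.79, edgeR adjusted p = 0.0332). Without WT mouse 4 it was 28.0-fold lower. The adjusted p missed the threshold, at 0.0584 to 0.0786, when any of the 4 KO mice or WT mouse 4 was left out. Parasutterella, an asaccharolytic genus of Sutterellaceae, made up 0.0435, 0.0767, 0.0425 and 0.0860% in KO mice, against 0.213, 1.22, 0.468 and 0.610% in WT mice. It was 10.1-fold lower with no overlap (log2 fold change -3.33, SE 0.77, edgeR adjusted p = 0.00475). Coriobacteriaceae_UCG-002, of the Actinobacteriota, averaged 0.0163 ± 0.00196% in KO mice and 0.377 ± 0.342% in WT mice (SD, n = 4 each), 23.1-fold lower with no overlap (edgeR adjusted p = 0.00276). Prevotellaceae_NK3B31_group was also called lower (edgeR adjusted p = 0.0382), with 0.00104, 0.00726, 0.00829 and 0.00518% in KO mice and 0, 1.04, 0.00311 and 0.0124% in WT mice. Without WT mouse 2 the log2 fold change was 0.07 with an adjusted p of 1, and without any of the 4 KO mice the adjusted p was 0.0741 to 0.102. The KO counts of Faecalibaculum, Coriobacteriaceae_UCG-002 and Prevotellaceae_NK3B31_group were traces too. With these at 0, Faecalibaculum was lower by at least 1153-fold (edgeR adjusted p = 0.00115), Coriobacteriaceae_UCG-002 by at least 121-fold (adjusted p = 0.000216) and Prevotellaceae_NK3B31_group by at least 84.5-fold (adjusted p = 0.0157).

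**Figure D2:**
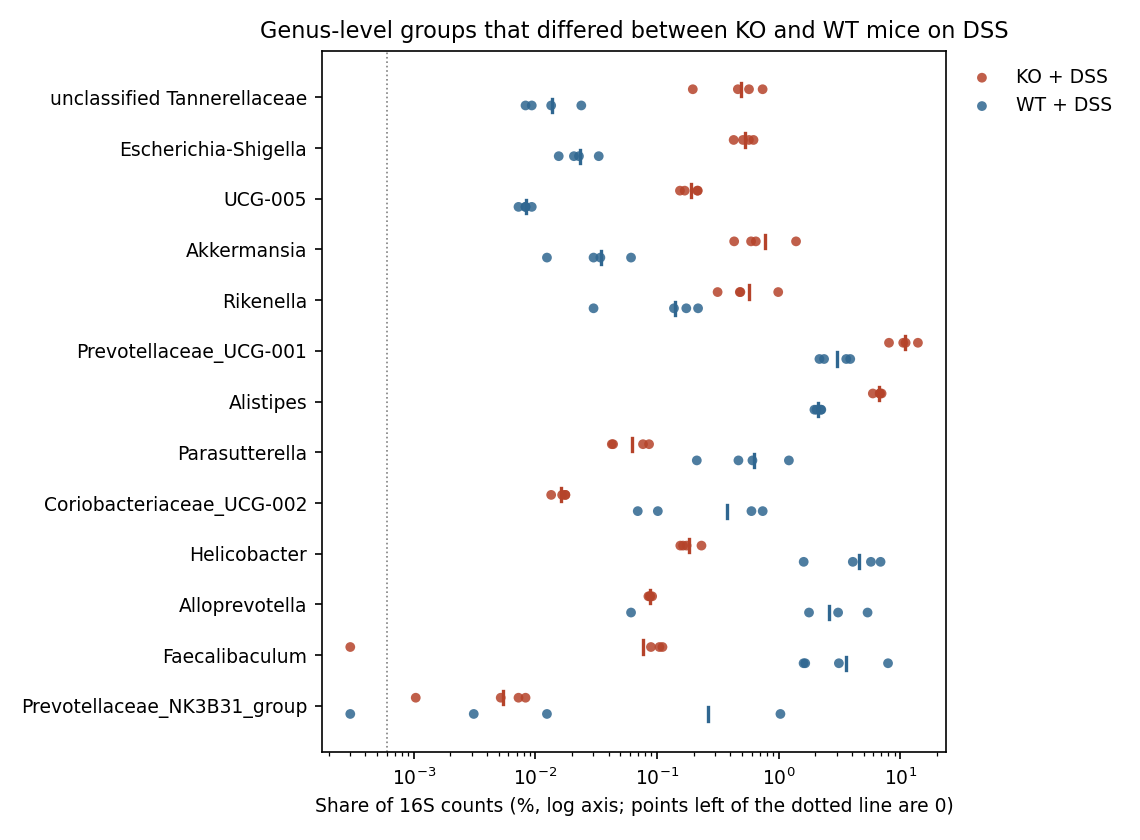
Share of 16S counts (x axis, percent, log scale) of the 13 genus-level groups called between genotypes that reached 0.1% in a group mean, for each of the 4 KO and 4 WT mice on DSS. Points are mice, bars are group means and points left of the dotted line are 0; the groups do not overlap for Akkermansia, Escherichia-Shigella and Helicobacter, whereas Alloprevotella and Prevotellaceae_NK3B31_group overlap.

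Of the 12 minor groups that were called, 3 were higher and 9 lower in KO mice, and 8 of the 9 had no count in any KO mouse on DSS. Candidatus_Arthromitus, the segmented filamentous bacteria that attach to the ileal epithelium of mice, made up 0.0104, 0.00726, 0.00622 and 0.00311% in KO mice on DSS and 0% in all 4 WT mice on DSS (edgeR adjusted p = 0.0164). A count of 0 allows a share of up to 0.00311% in a mouse. Roseburia, a butyrate producer, had no count in KO mice and 0.0425, 0, 0 and 0.0145% in WT mice (edgeR adjusted p = 0.0167), so the groups overlapped at 0. Both were named after their values were seen.

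The most abundant groups were for the most part not called. Unclassified Muribaculaceae, fermenters of dietary and host glycans typical of the mouse gut, averaged 14.3 ± 2.48% in KO mice on DSS and 17.8 ± 3.89% in WT mice on DSS (edgeR adjusted p = 0.274). Unclassified Lachnospiraceae averaged 14.2 ± 5.51% in KO mice and 11.7 ± 6.82% in WT mice (edgeR adjusted p = 0.640). Lachnospiraceae_NK4A136_group, often counted among the butyrate producers, averaged 9.58 ± 4.97% in KO mice and 12.97 ± 7.39% in WT mice (edgeR adjusted p = 0.553; SD, n = 4 each for these 3 groups). The mice of each genotype spread over a wide range in all 3. Bacteroides, which degrades many polysaccharides, made up 1.87, 2.37, 4.54 and 2.43% in KO mice, against 4.10, 4.47, 11.4 and 4.96% in WT mice (log2 fold change -1.15, SE 0.45, edgeR adjusted p = 0.0669), and it was called lower without KO mouse 3 (adjusted p = 0.0365).

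Mice of the 2 genotypes did not overlap in 17 of the 122 groups tested with KO above (13.9%) and in 14 with KO below (11.5%), and some of these missed the threshold. Mucispirillum, which lives in the mucus layer of rodents, made up 4.21, 2.01, 3.20 and 2.11% in KO mice on DSS, against 0.282, 0.901, 0.800 and 1.33% in WT mice on DSS. The KO mean was 3.48 times the WT mean (log2 fold change 1.80, SE 0.77, edgeR adjusted p = 0.0920), and it was called higher in a fit of the 8 DSS libraries alone (adjusted p = 0.0360). Turicibacter, a genus that modifies bile salts, made up 0.561, 2.11, 1.09 and 0.425% in KO mice and 0.340, 0.235, 0.387 and 0.401% in WT mice (edgeR adjusted p = 0.0990). Its ratio of 3.06 was 2.03 without KO mouse 2. DESeq2 called it higher (adjusted p = 0.0482), as did centred log-ratios in limma with both pseudocounts (adjusted p = 0.0216 and 0.0186). Parabacteroides made up 0.415, 0.827, 0.385 and 0.932% in KO mice and 2.46, 1.16, 1.64 and 1.26% in WT mice (edgeR adjusted p = 0.0990).

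Among the 57 families tested, 14 (24.6%) were called by edgeR, 5 higher (8.77%) and 9 lower (15.8%) in KO mice on DSS. The log2 fold change of the median family was -0.15. The number of families called in each direction depended on the scaling. TMM factors gave 9 higher and 6 lower, median-ratio factors 11 higher and 6 lower, DESeq2 9 higher and 8 lower, and centred log-ratios 7 and 7 or 6 and 6 with the 2 pseudocounts. These scalings raised the median family by 0.41, 0.44, 0.45, 0.42 and 0.39 on the log2 scale. Leaving out a mouse also moved the counts, to as few as 2 higher without WT mouse 1, 3 higher without KO mouse 1, 2 or 4, 3 lower without KO mouse 1 or 4, and 4 lower without WT mouse 1.

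Rikenellaceae, the family of Alistipes, took 9.56, 10.6, 7.605 and 10.2% of counts in KO mice on DSS, against 5.28, 5.24, 6.46 and 4.40% in WT mice on DSS. The groups did not overlap and the mean was 1.78-fold higher in KO mice (log2 fold change 0.83, SE 0.26, edgeR adjusted p = 0.0264). The adjusted p was 0.0530 to 0.0589 without KO mouse 1, 2 or 4 or WT mouse 1. Bacteroidaceae, which held Bacteroides alone, was called lower (edgeR adjusted p = 0.0454), but not under any of the other scalings (adjusted p = 0.174 to 0.401) and not without KO mouse 1, 2 or 4 or WT mouse 1 or 3 (adjusted p = 0.0534 to 0.241). Lachnospiraceae, the largest family, averaged 26.3 ± 4.81% in KO mice and 26.0 ± 3.15% in WT mice (SD, n = 4 each; edgeR adjusted p = 1), but with median-ratio factors it was called higher (log2 fold change 0.46, edgeR adjusted p = 0.0465). Prevotellaceae averaged 11.0 ± 2.43% in KO mice and 5.85 ± 2.56% in WT mice (SD, n = 4 each; edgeR adjusted p = 0.0667), with Prevotellaceae_UCG-001 higher and Alloprevotella lower inside it. The 5 other scalings called it higher (adjusted p = 0.00966 to 0.0371), as did the fit without WT mouse 4 (adjusted p = 0.0259).

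**Figure D3:**
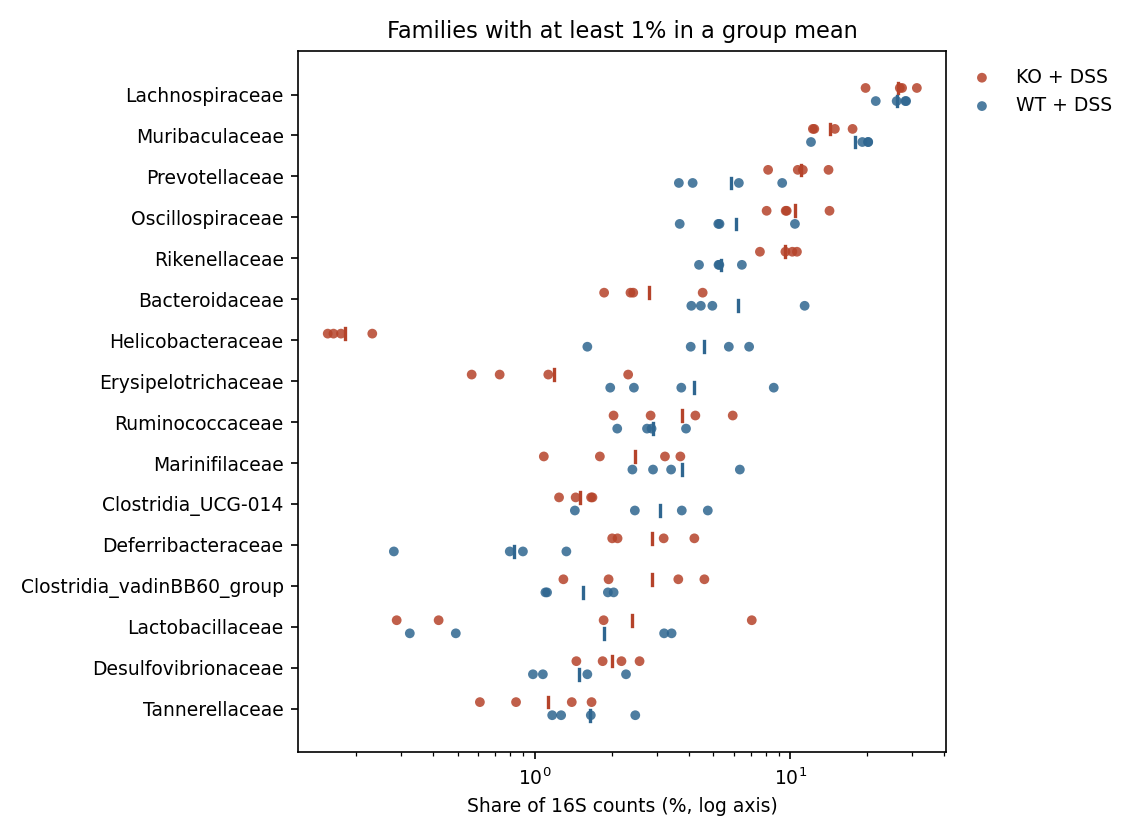
Share of 16S counts (x axis, percent, log scale) of families that reached 1% of counts in either mean, for each of the 4 KO and 4 WT mice on DSS. Points are mice and bars are group means; Helicobacteraceae are lower and Rikenellaceae higher in every KO mouse than in any WT mouse, while Lachnospiraceae, at 26.3% in KO and 26.0% in WT mice on average, overlap.

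The genus-level groups were also counted by what the bacteria are known for, by edgeR and beside the 8.2% higher and 12.3% lower among all 122 groups tested. Of 41 groups of anaerobic Clostridia, 2 were higher (Anaerotruncus and UCG-005) and 5 lower, with a median log2 fold change of 0.28. DESeq2 called 7 higher and 5 lower in that list, and centred log-ratios 6 higher and 4 lower. Of 10 groups of butyrate producers, Roseburia was lower and none was higher by edgeR (median -0.22), against 2 higher and 1 lower at an unadjusted p under 0.05. DESeq2 called 1 butyrate producer in each direction, and centred log-ratios called none. Among 3 mucin degraders Akkermansia was higher (median -1.15), and the summed share of the 3 averaged 4.21 ± 1.21% in KO mice on DSS and 7.89 ± 3.46% in WT mice on DSS (SD, n = 4 each), most of it Bacteroides. Among 3 mucus-associated genera Candidatus_Arthromitus was higher and Helicobacter lower (median 1.80). Of 5 oxygen-tolerant genera Escherichia-Shigella was higher (median -2.32).

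By edgeR, and beside the same 8.2% higher and 12.3% lower over all groups, 2 of 8 Erysipelotrichales groups were lower, Faecalibaculum and UCG-004 (median -1.94). DESeq2 called 2 of the 8 higher and 2 lower, and centred log-ratios 1 higher and 3 lower. Of 6 Coriobacteriia groups 2 were lower, Coriobacteriaceae_UCG-002 and Gordonibacter (median -2.27). Of 3 Prevotellaceae groups 1 was higher and 2 lower (median -4.87), of 3 Rikenellaceae groups 2 were higher (median 1.65), and the single Sutterellaceae group, Parasutterella, was lower (-3.33). By edgeR neither of the 2 groups of lactobacilli and bifidobacteria was called (median -0.97), nor either of 2 Muribaculaceae groups (median -0.95), any of 3 Desulfovibrionaceae groups (median 0.42), any of 3 groups of wall-less bacteria and Gastranaerophilales (median -0.65) or the coprostanoligenes group (-1.53). At an unadjusted p under 0.05, 1 Muribaculaceae group and 1 of the wall-less bacteria and Gastranaerophilales were lower, and none in the other 3 of these lists. DESeq2 and centred log-ratios called none in these lists except Gastranaerophilales, which was lower with DESeq2 (adjusted p = 0.0187) and with a pseudocount of 1 (adjusted p = 0.0424). EdgeR also called it lower from the 8 DSS libraries alone (adjusted p = 0.0441) and without KO mouse 3 (adjusted p = 0.0207). None of 4 groups often traced to reagents was called by edgeR or DESeq2, while 1 was higher at an unadjusted p under 0.05 and 1, Acinetobacter, with centred log-ratios. Their summed share was 0.0158 ± 0.0167% of counts in KO mice and 0.00466 ± 0.00354% in WT mice (SD, n = 4 each), and no organelle sequence was present.

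Differences were far more frequent among ASVs than among genera. Of 1056 ASVs tested, 398 (37.7%) were called by edgeR, 201 higher (19%) and 197 lower (18.7%) in KO mice on DSS. With a mouse left out the count called higher was 131 without WT mouse 2 and 127 without WT mouse 3, and the count called lower was 124, 130 and 125 without KO mouse 1, 3 and 4. The ASVs called higher made up 54.5 to 68.1% of counts in KO mice and 3.91 to 5.62% in WT mice. Those called lower made up 1.90 to 2.13% in KO mice and 53.6 to 69.6% in WT mice. These shares describe ASVs picked for their difference and are no test of it.

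Some genus-level groups held called ASVs in both directions. Of 115 groups with a tested ASV, 31 held called ASVs in both directions, and only 3 of those 31 were called as groups. These 31 groups held 340 of the 398 called ASVs, and 346 of the 398 were in groups with no call. The 31 groups held most of the tested ASVs too, as did the groups with no call, so neither count is a result about the called ASVs. Unclassified Lachnospiraceae alone had 200 tested ASVs, while Alistipes, the called group with most, had 25. In unclassified Muribaculaceae, 39 of 140 ASVs were higher and 46 lower in KO mice on DSS. The ASVs that were higher held 11.3% of counts in KO mice and 0.780% in WT mice, and those that were lower held 0.363% in KO mice and 13.6% in WT mice. The family was thus represented by different ASVs in the 2 genotypes at a similar total share. Lactobacillus, Bacteroides, Parabacteroides, unclassified Lachnospiraceae and Clostridia_UCG-014 also held called ASVs in both directions.

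Within genera, this replacement can be read as a distance. In 24 groups with at least 3 ASVs and 100 counts in every mouse on DSS, the Bray-Curtis distance was computed over the ASVs of that group alone. In 12 of the 24, all 16 KO-to-WT distances were above every distance within a genotype. Among these 12 is [Eubacterium]_siraeum_group, of whose 3 ASVs only 2 had a count in mice on DSS. The mean between genotypes was 0.948 for unclassified Peptococcaceae, 0.922 for Rikenellaceae_RC9_gut_group, 0.912 for Alistipes and 0.882 for Mucispirillum. It was 0.0237 for Turicibacter and 0.0244 for Helicobacter, in which KO and WT mice shared the same leading ASV. All Helicobacter counts in KO mice on DSS were traces, so its distance sets WT mice against those low counts.

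**Figure D4:**
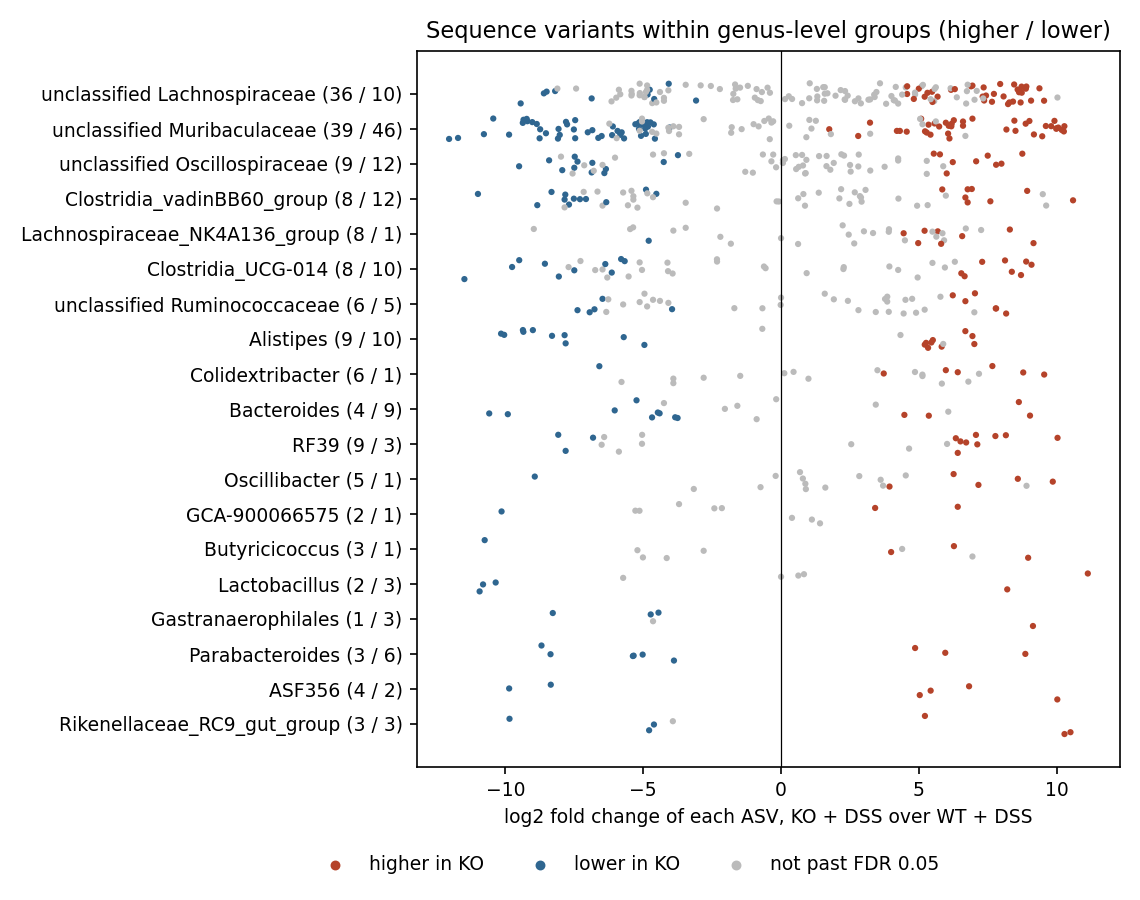
Log2 fold change (x axis, KO over WT on DSS) of each tested ASV with a count in a mouse on DSS. Shown are genus-level groups with at least 7 tested ASVs and called ASVs in both directions. Each point is an ASV, coloured where it was called, and the numbers beside each name count ASVs called higher and lower; unclassified Muribaculaceae have 39 higher and 46 lower.

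Pairs of ASVs of the same group show the pattern mouse by mouse. In unclassified Muribaculaceae, ASV10 made up 3.24, 4.46, 3.06 and 3.99% of counts in KO mice on DSS, against 0.219, 0.468, 0.393 and 0.497% in WT mice on DSS (9.37-fold higher, edgeR adjusted p = 0.00459). ASV5, of the same group, made up 0.0974, 0.0809, 0.106 and 0.138% in KO mice, against 1.97, 4.61, 2.74 and 3.53% in WT mice (30.5-fold lower, edgeR adjusted p = 9.06e-05). Neither ASV overlapped between genotypes. In Alistipes, ASV25 made up 3.42, 0.739, 2.51 and 1.498% in KO mice and 0.0384, 0.0788, 0.0560 and 0.0466% in WT mice (37.2-fold higher, edgeR adjusted p = 0.000299). ASV76 made up 0.0352, 0.0321, 0.0321 and 0.0301% in KO mice and 1.15, 0.882, 1.20 and 0.802% in WT mice (31.2-fold lower, edgeR adjusted p = 0.0145). Here too every mouse of the higher genotype was above every mouse of the other.

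In Bacteroides, ASV59 averaged 0.356 ± 0.246% in KO mice on DSS and 0.00855 ± 0.00391% in WT mice on DSS (SD, n = 4 each; 41.7-fold higher, edgeR adjusted p = 0.000661). ASV151 of the same genus was 14.4-fold lower (edgeR adjusted p = 0.0158), and 6.80-fold lower with an adjusted p of 0.0584 without WT mouse 3. In Clostridia_UCG-014, an uncultured order-level group, ASV120 averaged 0.712 ± 0.287% in KO mice and 0.00441 ± 0.00881% in WT mice (SD, n = 4 each; 162-fold higher, edgeR adjusted p = 0.0162). ASV124 of that group was 56.5-fold lower, but 3.57-fold lower with an adjusted p of 0.415 without WT mouse 1, and its call (edgeR adjusted p = 0.0389) was also lost without any of the 4 KO mice (0.0737 to 0.0799). In unclassified Lachnospiraceae, ASV62 was 44.7-fold higher (edgeR adjusted p = 0.0308), 21.1-fold without KO mouse 4 (adjusted p = 0.0771), and it lost its call without any 1 of the WT mice. ASV43 was 27.2-fold lower (edgeR adjusted p = 0.0129).

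In unclassified Oscillospiraceae, ASV114 was 47.2-fold higher in KO mice on DSS (edgeR adjusted p = 0.0237), and its adjusted p was 0.0503 to 0.0572 without WT mouse 1, 2 or 4. ASV265 was called lower (edgeR adjusted p = 0.0407), with an adjusted p of 0.21 without WT mouse 1, which held 0.830%, and of 0.0507 to 0.0793 without WT mouse 2 or any of the 4 KO mice. In Clostridia_vadinBB60_group, ASV119 was 58.2-fold higher (edgeR adjusted p = 0.0227), 29.3-fold without KO mouse 4 (adjusted p = 0.0578), 93.6-fold without WT mouse 1, and lost its call without WT mouse 4 (adjusted p = 0.0557). ASV236 was 30.2-fold lower (edgeR adjusted p = 0.0275), a call that was lost without any of the 4 KO mice or WT mouse 2 or 3 (adjusted p = 0.0538 to 0.0617). In RF39, ASV396 was at least 43.5-fold higher and ASV641 at least 11.2-fold lower. The ASV641 call (edgeR adjusted p = 0.0407) was lost without any KO mouse, without WT mouse 1, and without WT mouse 4, when it was at least 4.56-fold lower. These pairs show that single mice decide some of the ASV calls, while those of ASV10, ASV5, ASV25 and ASV76 held in every alternative tried. For 12 of these ASVs, ASV5, ASV25 and ASV76 among them, the counts in the lower genotype were traces on which the size of the fold rests. With the traces set to 0 all 12 were called (edgeR adjusted p = 8.51e-06 to 0.0190). That setting widens their differences by construction, so these calls are no further support.

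Some ASVs were found in 1 genotype alone. Of the 1291 ASVs with a count in a mouse on DSS, 440 occurred in both genotypes and 154 in all 8 mice. A further 377 occurred in KO mice only, 67 of them in all 4, and 474 in WT mice only, 55 of them in all 4. Folds against a group at 0 are lower bounds, as above. ASV172, of unclassified Muribaculaceae, made up 0.147, 0.161, 0.154 and 0.180% in KO mice on DSS and had no count in WT mice on DSS (at least 51.7-fold higher, edgeR adjusted p = 0.000266). ASV117, of the same group, had no count in KO mice and made up 0.788, 0.291, 0.316 and 0.349% in WT mice (at least 140-fold lower, edgeR adjusted p = 4.43e-05). The remaining ASVs with no count in a genotype include members of Lactobacillus in both directions.

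Among Lactobacillus, lactic acid bacteria, ASV116 made up 0.0321, 0.783, 0.286 and 0.0580% in KO mice on DSS and had no count in WT mice on DSS (at least 93.2-fold higher, at least 40.3-fold without KO mouse 2, edgeR adjusted p = 0.00201). ASV53 had no count in KO mice and made up 0.476, 0.0384, 0.0726 and 0.427% in WT mice (at least 81.5-fold lower, edgeR adjusted p = 0.000496). ASV50 was at least 74.8-fold lower (edgeR adjusted p = 0.000427). Lactobacillus as a genus was not called, at 2.41 ± 3.19% in KO mice and 1.87 ± 1.69% in WT mice (SD, n = 4 each; edgeR adjusted p = 0.825), and its direction turned without KO mouse 2, to a log2 fold change of -1.12.

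Other ASVs named by the same rule were found in 1 genotype. ASV267 and ASV303 of unclassified Muribaculaceae were at least 51.0-fold and 48.4-fold higher in KO mice on DSS. ASV135 and ASV153 of Rikenellaceae_RC9_gut_group were at least 60.2-fold and 51.8-fold higher, each with no count in KO mouse 1. ASV178 of Lachnoclostridium was at least 86.9-fold higher, and at least 15.2-fold without KO mouse 3. ASV304 of Clostridia_vadinBB60_group was at least 64.2-fold higher, and at least 33.8-fold with an edgeR adjusted p of 0.0522 without KO mouse 4. In the other direction, ASV127 was at least 176-fold lower, and at least 61.2-fold without WT mouse 1. ASV231 was at least 119.5-fold lower, and at least 22.6-fold without WT mouse 3. ASV248 was lower by at least 88.8-fold, ASV251 by at least 85-fold and ASV270 by at least 73.2-fold.

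Many of these genotype differences were also present in mice that had not received DSS, and those mice share no library with the mice on DSS. Between KO and WT mice on water, 558 of 1056 ASVs (52.8%) were called by edgeR, 220 higher (20.8%) and 338 lower (32%). Of the 201 ASVs higher in KO mice on DSS, 115 were also higher on water, which is 57.2% of the DSS list and 52.3% of the water list. Of the 197 lower on DSS, 142 were also lower on water, or 72.1% of the DSS list and 42% of the water list. Across the 800 ASVs with counts under both conditions, the log2 fold changes had a Pearson correlation of 0.78, given as a description because ASVs are not independent and the fit is shared. Only 3 ASVs of each direction on DSS were called in the opposite direction on water. Among genera on water, 49 were called (40.2%), 17 higher (13.9%) and 32 lower (26.2%). On DSS, 5 of the 10 higher and 10 of the 15 lower groups had the same call on water, and 1, Roseburia, had the opposite one.

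**Figure D5:**
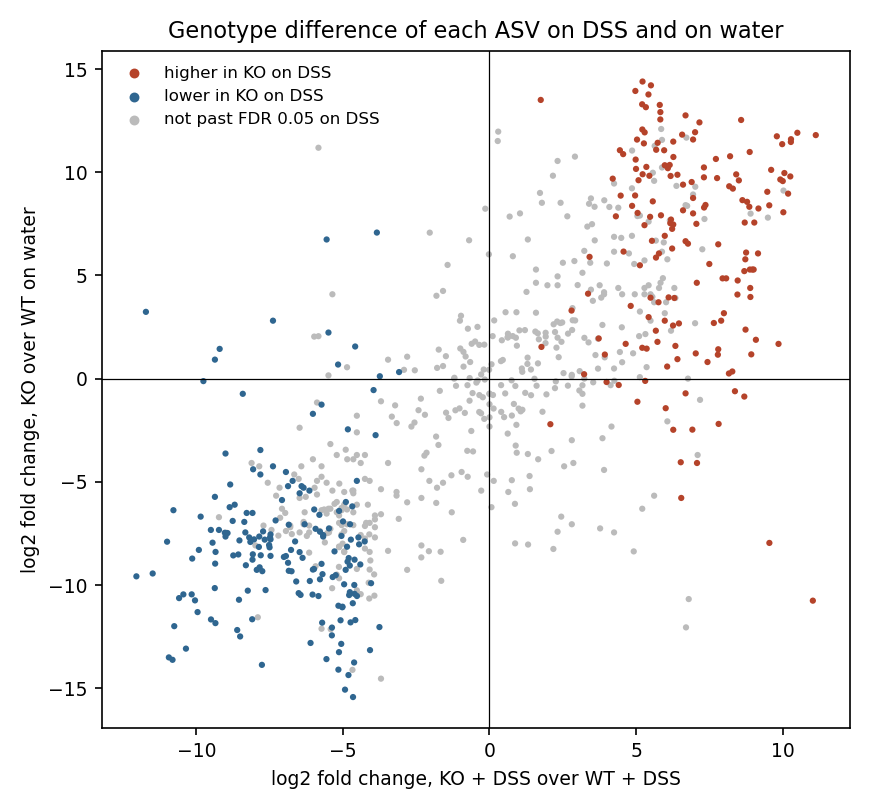
Log2 fold change of each ASV between KO and WT mice on DSS (x axis) and on water (y axis), for the 800 ASVs with counts under both conditions. Each point is an ASV, coloured by its call on DSS; most coloured points lie in the quadrants where both differences have the same sign, and the Pearson correlation is 0.78.

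For some genera the genotype difference itself differed between DSS and water. That difference was tested as an interaction, and 11 of 122 groups (9.02%) passed by edgeR, as did 59 of 1056 ASVs (5.59%) and 8 of 57 families (14%). With traces set to 0 in the mice on DSS, an alternative chosen after seeing the data, 8 groups, 23 ASVs and 6 families passed. Escherichia-Shigella averaged 0.532% in KO and 0.0231% in WT mice on DSS, but 0.0140% in KO and 0.0174% in WT mice on water (interaction 4.83 on the log2 scale, edgeR adjusted p = 0.0291). Faecalibaculum averaged 0.0762% in KO and 3.59% in WT mice on DSS, and 0.0137% in KO and 0.00181% in WT mice on water (interaction -8.39, edgeR adjusted p = 0.037). On water only KO mouse 1 (0.0549%) and WT mouse 4 (0.00726%) had a count of it, so the size of its interaction rests on them. Both passed with the traces at 0 as well (edgeR adjusted p = 0.00275 and 0.00364). That setting empties their lower genotype on DSS and so widens both interactions by construction.

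Alistipes and Prevotellaceae_UCG-001 were higher in KO mice under both conditions. Alistipes averaged 6.65% in KO and 2.12% in WT mice on DSS, and 7.18% in KO and 2.16% in WT mice on water (interaction -0.09, edgeR adjusted p = 1). Prevotellaceae_UCG-001 averaged 10.9% in KO and 3.01% in WT mice on DSS, and 1.10% in KO and 0.310% in WT mice on water (interaction 0.03, edgeR adjusted p = 1). A missed threshold does not show that the 2 differences are equal. Helicobacter was lower in KO mice under both conditions, at 0.182% in KO and 4.58% in WT mice on DSS, and 0.000777% in KO and 5.99% in WT mice on water. Alloprevotella had 0.0879% in KO and 2.58% in WT mice on DSS, against 0% in KO and 2.74% in WT mice on water. Their interactions passed as deposited (8.03 and 9.49, edgeR adjusted p = 0.000157 and 0.00161) but not with the KO traces set to 0 (-2.43 and 0.068, edgeR adjusted p = 0.370 and 1.00), so a change of the genotype difference with DSS rests on those low counts. Rikenellaceae_RC9_gut_group was higher in KO mice on water, at 3.69% in KO and 0.521% in WT mice, but not on DSS, at 2.27% in KO and 3.08% in WT mice (interaction -3.27, edgeR adjusted p = 0.00363).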

How the data were processed

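Colon samples of 16 mice were profiled by 16S sequencing. The authors deposited counts per ASV with taxonomic names; each library summed to 96469 in the file. For the way even depth was reached, and for denoising and taxonomy tools, nothing was found in the labels, and the protocol text in the labels describes a transcriptome preparation. The members and taxon lists were chosen with earlier results of these data known. ASVs were summed by the deposited genus and family names. Features summing to 10 or more counts and present in 3 or more of the 16 libraries were tested with edgeR 4.0.16 (quasi-likelihood, robust; library total as scaling; R 4.3.3), with Benjamini-Hochberg adjustment over all features of a level at 0.05. Standard errors were derived from the F statistic. Diversity and distances were tested by exact permutation over mice (70 arrangements or 35 splits). Alternatives were TMM, median-ratio factors, DESeq2 1.42.0, centred log-ratios in limma 3.58.1 (pseudocounts 0.5 and 1), other filters, the 8 DSS libraries alone, a replicate block, no reagent-associated genera, traces set to 0, and each mouse left out. The tests were tried on simulated data.

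Named genera were up to 15 per direction past the threshold that reached 0.1% in either mean, then the 10 of highest abundance and list members with at least 0.5%. Named families had at least 1%. Named ASVs were up to 8 per direction and a pair from each of up to 8 groups with called ASVs in both directions. The limit of 3 counts covers counting error only. The p-values set each difference against the spread between mice. In the main edgeR fit that spread was estimated from all 16 libraries and shared in part over features.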

Additional observations from a re-analysis of the deposited data

Results flagged for a closer look

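The 4 mice of each genotype on DSS were examined for a mouse that stood apart in 142 groups of values, and 18 did. A chance rate of about 1 such mouse in 20 groups holds only for independent, normally distributed values. The values here were shares, some of them tied or without a count. Some taxa were also nested, such as unclassified Muribaculaceae within the family Muribaculaceae. Whether 18 is more than chance would give was therefore not tested. Among KO mice on DSS, mouse 4 stood apart for Butyricicoccus at 1.46%, Desulfovibrio at 0.840% and ASV119 at 1.69%. KO mouse 3 stood apart for Gastranaerophilales at 0.293%, ASV178 at 0.939% and ASV43 at 0.0529%. KO mouse 2 stood apart for Colidextribacter at 1.05% and ASV151 at 0.0404%. For ASV151 the other KO mice tied at 0.0446%, so a small gap was enough. Among WT mice on DSS, mouse 3 stood apart for Bacteroides at 11.4%, unclassified Muribaculaceae at 12.0%, the family Muribaculaceae at 12.0% and ASV231 at 1.28%. WT mouse 2 stood apart for Prevotellaceae_NK3B31_group at 1.04% and unclassified Oscillospiraceae at 5.00%. WT mouse 1 stood apart for ASV117 at 0.788%, ASV265 at 0.830%, ASV124 at 2.23% and ASV120 at 0.0176%. For ASV120 the other WT mice had no count, so any count would have stood apart.

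The genotype difference on DSS minus that on water passed edgeR's interaction test (adjusted p under 0.05, log2 scale) for 17 named taxa other than Helicobacteraceae. It was above 0 for Escherichia-Shigella (4.83), Alloprevotella (9.49), Helicobacter (8.03), Coriobacteriaceae_UCG-002 (6.01), [Eubacterium]_coprostanoligenes_group (8.00), Prevotellaceae (2.99), ASV178 (21.78), ASV5 (10.14) and ASV59 (3.91). It was below 0 for unclassified Tannerellaceae (-6.78), Faecalibaculum (-8.39), Rikenellaceae_RC9_gut_group (-3.27), Lachnospiraceae (-0.64), Rikenellaceae (-1.18), ASV117 (-14.95), ASV25 (-6.86) and ASV151 (-10.92). Helicobacteraceae held Helicobacter alone and passed with the same value, so the family was not counted again. With traces set to 0 in the mice on DSS, the values for Alloprevotella, Helicobacter, Coriobacteriaceae_UCG-002, unclassified Tannerellaceae, ASV5 and ASV25 no longer passed. Where a group has no count the size of such a value depends on the prior count and is no measured fold. ASV117 averaged 0% in KO and 0.436% in WT mice on DSS, and 0.262% in KO and 0.0277% in WT mice on water. ASV178 averaged 0.270% in KO and 0% in WT mice on DSS, and 0% in KO and 0.224% in WT mice on water.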

How the results depend on the processing

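Of 48 named taxa called, 34 kept their direction and call in every alternative run and 14 lost the call in at least 1. With a replicate block, 122 ASVs were higher and 109 lower, and 2 families were higher and 3 lower. Same-numbered KO and WT mice had correlations of -0.04, -0.18, -0.05 and 0.05 in their deviations, against -0.15 to 0.20 for mice of unlike number. Whether equal numbers mark paired mice cannot be settled by these correlations, and the labels give no cage or litter. More genera were higher with DESeq2 (19) and with centred log-ratios (16 with either pseudocount), and more families with TMM (9), median-ratio factors (11) and DESeq2 (9). Leaving out a mouse gave 127 to 167 ASVs higher and 124 to 164 lower, 9 to 11 genera higher and 12 to 16 lower, and 2 to 5 families higher and 3 to 10 lower. It gave a Shannon difference of 0.153 to 0.337, an R2 of 0.642 to 0.703, and a difference in observed ASVs of -41.4 to 42.6, of which 2.75 (without KO mouse 1) and 0.250 (without WT mouse 2) were above 0. Counting ASVs with at least 5 counts gave 6.5. The causes were not tested.

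Directions turned for these log2 fold changes, none of them called after the turn. Muribaculaceae were at 0.13 with TMM, 0.15 with median-ratio factors and DESeq2, and 0.11 and 0.078 with centred log-ratios. GCA-900066575 was at 0.17 and 0.13 with centred log-ratios, 0.018 with the replicate block and -0.50 to 0.063 with a mouse left out. [Eubacterium]_siraeum_group was at -0.020 with TMM, -0.28 and -0.32 with centred log-ratios, -0.42 with the replicate block and -0.27 to 0.61 with a mouse left out. With a mouse left out, Prevotellaceae_NK3B31_group ranged over -5.98 to 0.069 (highest without WT mouse 2), unclassified Lachnospiraceae over -0.027 to 0.68, Butyricicoccus over -0.070 to 1.19, Lactobacillus and Lactobacillaceae over -1.12 to 0.84, and Lachnospiraceae over -0.082 to 0.13. A count of 0 allows a share of up to 0.00311% in a mouse.

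With traces set to 0, chosen after seeing the data for this contrast, 11 of 18 interactions kept their direction and call. The others did not pass (edgeR adjusted p = 0.258 to 1.00), at -2.43 for Helicobacter and Helicobacteraceae, -0.99 for Coriobacteriaceae_UCG-002, 0.068 for Alloprevotella, -3.48 for unclassified Tannerellaceae, 0.45 for ASV5 and 1.90 for ASV25. Among those that kept the call, Escherichia-Shigella, Faecalibaculum and ASV59 had their lower genotype on DSS emptied, which widens the interaction by construction.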

Other observations

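Of the 67 ASVs found in all 4 KO mice on DSS and in no WT mouse on DSS, 40 also occurred on water in KO mice alone, 1 in WT mice alone, 15 in both genotypes and 11 in no water mouse. Of the 55 found in all 4 WT mice on DSS and in no KO mouse on DSS, 41 also occurred on water in WT mice alone, 0 in KO mice alone, 3 in both genotypes and 11 in no water mouse. The ASVs found in KO mice alone held 6.43 to 9.27% of counts in the KO mice on DSS, and those found in WT mice alone held 8.62 to 12.2% in the WT mice on DSS.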
